A study of Mus musculus with 4 samples.

Results

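Gm10505 and Gm49794 are neighbouring long noncoding genes on mouse chromosome 17, 2 of the 32285 genes counted in single-cell RNA-seq libraries of postnatal day (P) 15 testes. They were picked by symbol, for their near absence in Meioc-null cells, so that their difference between genotypes is a description here and carries no test. Droplet-based 3′ single-cell libraries were made from 2 wild-type and 2 Meioc-null pups on a C57BL/6N background. Each of 2 batches held 1 wild-type and 1 Meioc-null littermate, with 1 testis taken from each pup. The null pups were homozygous for a Meioc allele that removes gene function (tm1.1Dpc). All 4 pups, controls included, also carried 1 mutant Hspa2 allele and 2 copies of a ROSA26 tdTomato reporter whose stop cassette was intact. The interstitium was removed during dissociation.

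In the mouse testis, spermatogonia divide by mitosis, replicate their DNA a last time at the preleptotene stage, and then pass through leptotene, zygotene and pachytene, when homologous chromosomes are broken, paired and recombined. MEIOC, with its partners YTHDC2 and RBM46, acts on RNA in the cytoplasm and is needed for germ cells to go through these stages. Long noncoding RNAs are transcripts with no recognised protein product, and many are most abundant in late spermatocytes and later germ cells. No function is assigned to Gm10505 or Gm49794 here.

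Both genes lie on the plus strand, one behind the other, in the GRCm38 build. Gm10505 (ENSMUSG00000073430) spans chr17:27325035-27344833. The GENCODE M21 annotation gives it 26 transcripts of 1 to 7 exons and 1109 to 2218 bases, of which 25 end close to the 3′ end of the gene. Gm49794 (ENSMUSG00000116879) spans chr17:27354111-27367492 and has 1 annotated transcript of 2 exons and 13039 bases. The gap between the genes is 9277 bases, and their starts are 29076 bases apart. A miRNA gene, Mir7216, lies within Gm10505, and Mir7217 and Mir7218 lie within Gm49794. The start of Gm49794 overlaps the antisense gene Gm49795 over 558 bases. The transcripts of the 2 genes share 0 stretches of 31 bases, so a read of that length from one could not be counted for the other. Of such stretches, 1.91% in Gm10505 and 4.79% in Gm49794 also occur in transcripts of other genes.

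The ends of the 2 transcripts are shown because 3′ libraries count a transcript near its end, although where the reads fell was not examined. The capitals mark a polyadenylation signal (AATAAA or ATTAAA), which 34.5% of 141515 annotated transcripts hold in their last 60 bases. The spans are chr17:27344774-27344833 for Gm10505 and chr17:27367433-27367492 for Gm49794, both in the last exon on the plus strand of GRCm38.
Gm10505, last 60 bases: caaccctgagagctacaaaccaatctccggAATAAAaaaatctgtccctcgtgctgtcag
Gm49794, last 60 bases: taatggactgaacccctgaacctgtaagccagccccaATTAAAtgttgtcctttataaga

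Since both genes appeared within the same 3 bins of an ordering of the cells, the RefSeq promoter windows (250 bases before to 50 after a start; GRCm38.p6) are shown where the table had one, which was the case for 2 starts of Gm10505. The windows are chr17:27324946-27325245, at the 5′ end of the gene, and chr17:27342210-27342509, within the gene, both on the plus strand. The capitals mark AACNG, the core letters bound by MYB factors, searched on both strands. The first window holds 3 matches and the second 4, and 80.3% of 32851 RefSeq promoter windows hold at least 1, so a match is no mark of these promoters. CCAAT and TATAAA each occur 0 times in the first and 1 time in the second window (37.4% and 13.6% of all windows hold them), GGGCGG 1 and 2 times (35.7%), and TGACG in neither (20.8%).
Gm10505, first start: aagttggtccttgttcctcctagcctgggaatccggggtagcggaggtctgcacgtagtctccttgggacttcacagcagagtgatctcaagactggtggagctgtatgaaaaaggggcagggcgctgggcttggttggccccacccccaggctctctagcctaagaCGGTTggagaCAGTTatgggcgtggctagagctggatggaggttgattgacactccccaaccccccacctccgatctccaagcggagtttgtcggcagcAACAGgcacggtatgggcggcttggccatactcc
Gm10505, second start: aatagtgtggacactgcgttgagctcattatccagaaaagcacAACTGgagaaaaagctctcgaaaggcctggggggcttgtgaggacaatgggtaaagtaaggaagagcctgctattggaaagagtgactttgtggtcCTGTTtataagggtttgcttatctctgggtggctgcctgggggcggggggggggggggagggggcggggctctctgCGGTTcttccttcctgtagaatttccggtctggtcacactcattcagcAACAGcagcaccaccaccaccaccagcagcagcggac

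The rule kept barcodes with more than 1000 detected genes and under 10% mitochondrial UMIs, and after doublets were removed 5644 to 7505 cells remained per library, of which 4275 to 6026 were germ cells. The groups of cells taken as germ cells each expressed 4 or 5 of the 5 germ cell markers Ddx4, Dazl, Mael, Rnf17 and Tdrd1. The median depth was 11698.5 to 14446 UMIs per cell, and pairs of libraries shared 12 to 16 cell barcodes. Meioc itself gave 293.3 and 291.6 counts per 1000000 UMIs (CPM) in germ cells of the wild-type libraries and 342.2 and 282.5 CPM in those of the null libraries. A 3′ count does not read whether exons were deleted upstream, so it is no check of the genotype. Wild-type germ cells were grouped on protein-coding genes alone into 11 clusters, numbered by their distance from the undifferentiated spermatogonia, and every cell took the commonest cluster of its nearest wild-type cells. Neither gene could therefore place a cell.

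Gm10505 and Gm49794 were abundant in the last 2 clusters, 10 and 11, and scarce in all others. The leading genes of cluster 10 included Sycp3, Hspa5, Rad51ap2, Rexo5 and Hormad1, among them chromosome axis and synaptonemal complex genes. Cluster 11 was led by Fabp9, Meig1, Rsph1, Cox8c and Ldhc, genes known from pachytene and later germ cells. Both clusters expressed 7 of the 8 early spermatocyte markers, and 4 and 5 of the 8 pachytene markers were detected in clusters 10 and 11, as many as in clusters 1 to 3 (4, 5 and 4), so these counts do not set the 2 clusters apart. The mean log level of the pachytene markers was 0.438 in cluster 10 and 1.09 in cluster 11. In clusters 1 to 9 it was 0.135 to 0.238. Piwil1, by which the paper assigned pachytene cells, had wild-type means of 37.9 CPM in cluster 10 and 857.4 CPM in cluster 11. Gm10505 and Gm49794 both had their highest cluster level in cluster 11, so the stage name zygotene covers only part of the cells that held them.

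Gm10505 stood at 328.9 and 289.1 CPM in cluster 10 of the wild-type libraries, from 2132 and 4077 UMIs. In cluster 11 it stood at 417.0 and 513.9 CPM, a mean of 465.5 ± 68.5 (SD, n = 2). In clusters 1 to 9 its wild-type level ranged from 0.33 to 3.79 CPM. The 2 wild-type libraries thus lay close together in cluster 10, and both were higher in cluster 11.

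Gm49794 stood at 201.0 and 137.8 CPM in wild-type cluster 10, from 1303 and 1944 UMIs. In cluster 11 it stood at 279.0 and 389.1 CPM, a mean of 334.0 ± 77.9 (SD, n = 2). Its wild-type level in clusters 1 to 9 ranged from 1.17 to 5.82 CPM. The first wild-type library was the higher of the pair in cluster 10 and the lower in cluster 11, and in each library the level was higher in cluster 11. Clusters 10 and 11 together held 97.2% and 98.5% of all Gm10505 UMIs and 93.3% and 96.9% of all Gm49794 UMIs of the wild-type libraries. The cluster 10 means ranged from 183.7 to 541.3 CPM for Gm10505 and from 88.6 to 354.4 CPM for Gm49794 over 4 other settings. These settings changed the cells kept, their placing or the number of clusters.

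**Figure D1:**
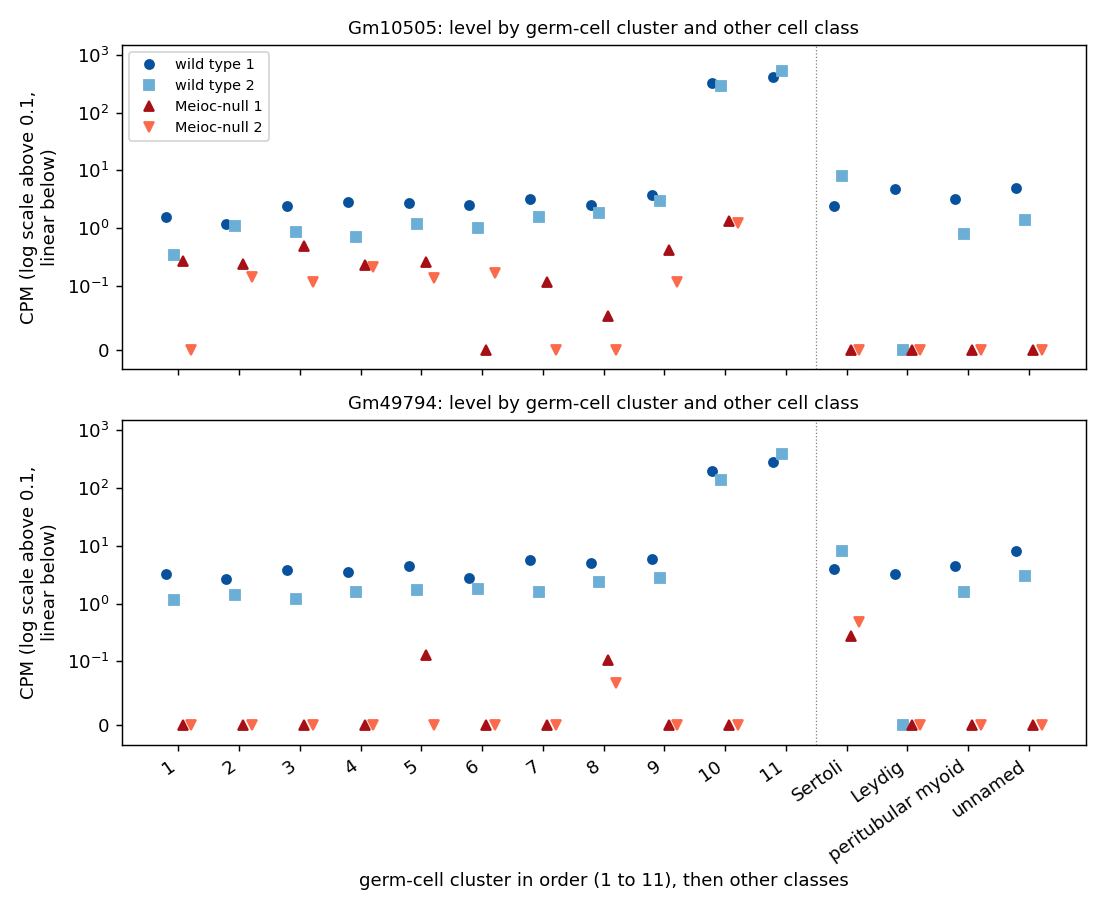
Level of Gm10505 and Gm49794 (CPM, log scale above 0.1 and linear below) in each germ cell cluster and, right of the dotted line, in other cell classes, 1 point per library. The wild-type points lie at 5.82 CPM or less in clusters 1 to 9, at 137.8 CPM or more in clusters 10 and 11 and at 8.27 CPM or less in the other classes, and cluster 11 has no null point because no null cell was placed there.

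The levels in clusters 1 to 9 can be set beside those in somatic and unnamed cells. The unnamed cells included a group that held all 5 germ cell markers, so they are not all somatic. Over both kinds, 3.36% and 1.56% of wild-type cells held a Gm10505 UMI and 4.75% and 2.16% held a Gm49794 UMI, at median depths of 8408 and 8270 UMIs. The 2 transcripts stood there at 3.21 and 3.00 CPM for Gm10505 and 4.82 and 3.75 CPM for Gm49794, in the second library above each of its clusters 1 to 9 (at most 2.90 and 2.78 CPM). There, 41 of the 52 Gm10505 UMIs lay in 12 Sertoli cells (8.07 CPM in Sertoli cells) and 42 of the 65 Gm49794 UMIs in 10 (8.27 CPM). Free RNA and doublets were not tested as sources of these UMIs, and no expression is read from the levels in clusters 1 to 9.

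The proportion of the 2 transcripts differed between these cell groups as well. Gm49794 made up 37.9% and 32.3% of the 2 genes' summed UMIs in wild-type cluster 10, and 40.1% and 43.1% in cluster 11. It made up 62.4% and 58.6% in clusters 1 to 9, and 60% and 55.6% in somatic and unnamed cells. The exact 95% binomial intervals of clusters 1 to 9 and of somatic and unnamed cells overlapped, and neither overlapped those of clusters 10 and 11. These intervals, and the limits set by a count of 0 below, cover counting error only.

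Ordering the germ cells by diffusion pseudotime, in 20 bins of equal wild-type cell number, placed the onset of both genes between bins 17 and 19. Gm10505 was at 4.09 and 6.23 CPM in bin 17, 37.3 and 38.3 CPM in bin 18, 628.3 and 627.1 CPM in bin 19, and 407.5 and 514.0 CPM in bin 20 of the wild-type libraries. Gm49794 rose over the same bins, from 5.25 and 1.30 CPM in bin 17 to 13.3 and 12.8 CPM in bin 18, 393.8 and 324.5 CPM in bin 19, and 272.4 and 388.9 CPM in bin 20. From bin 19 to bin 20 the CPM of Gm10505 was lower in both libraries, and that of Gm49794 was lower in the first and higher in the second. Median depth rose meanwhile from 17687 and 17006.5 to 46300 and 35616 UMIs per cell. Gm10505 gave 2459 and 4389 UMIs in the 173 and 342 cells of bin 19. It gave 5024 and 5582 in the 241 and 274 cells of bin 20, so its UMIs per cell rose. Gm49794, from 1541 and 2271 to 3359 and 4224 UMIs in the same cells, also rose per cell. With onset set as the first bin in which both wild-type libraries exceeded 10% of the highest bin's level, both genes began in bin 19, which opens at 90% of the wild-type germ cells.

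**Figure D2:**
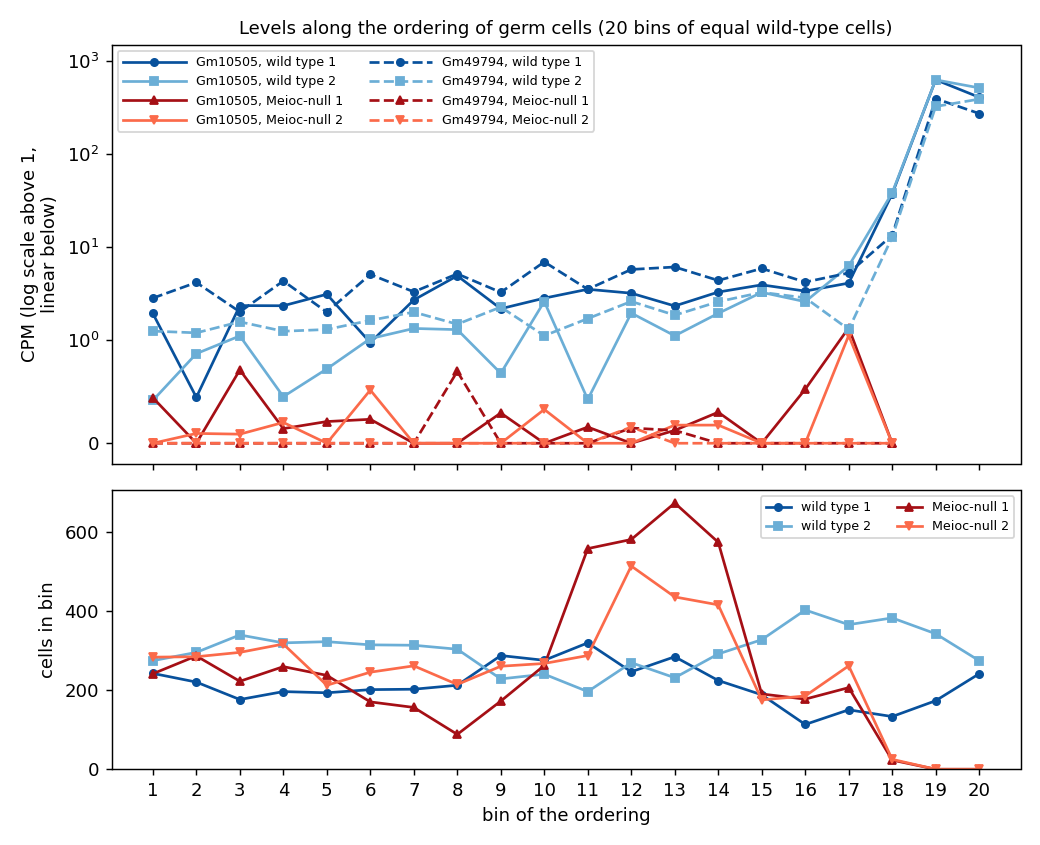
Upper panel, level (CPM, log scale above 1 and linear below) of Gm10505 (solid) and Gm49794 (dashed) in 20 bins of the ordering for each library, and lower panel, cells per bin. Both genes climb in wild-type bins 18 and 19, where the null libraries hold 23 and 25 cells and then 0.

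A finer division into 100 bins, tried after the data had been seen, separated the 2 genes slightly. Gm10505 moved from 5.69 and 14.7 CPM in bin 89 to 185.7 and 129.6 CPM in bin 90 and passed 10% of its highest level there. Gm49794 moved from 2.85 and 3.92 to 48.2 and 47.8 CPM in the same step, and passed 10% of its own highest level 1 bin later, at 68.9 and 77.4 CPM. Bin 90 held 18 and 85 wild-type cells, and a lag of 1 bin was not tested.

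Both genes had their highest mean in bin 94, at 977.6 and 790.4 CPM for Gm10505 and 603.0 and 417.1 CPM for Gm49794. By the last bin, Gm10505 had come down to 296.3 and 391.2 CPM and Gm49794 to 168.0 and 268.9 CPM. The decline in CPM was present in both wild-type libraries, although the last bin held 83 cells of one and 20 of the other. It was not set apart from the rise in depth between bins 19 and 20 of the coarser division.

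**Figure D3:**
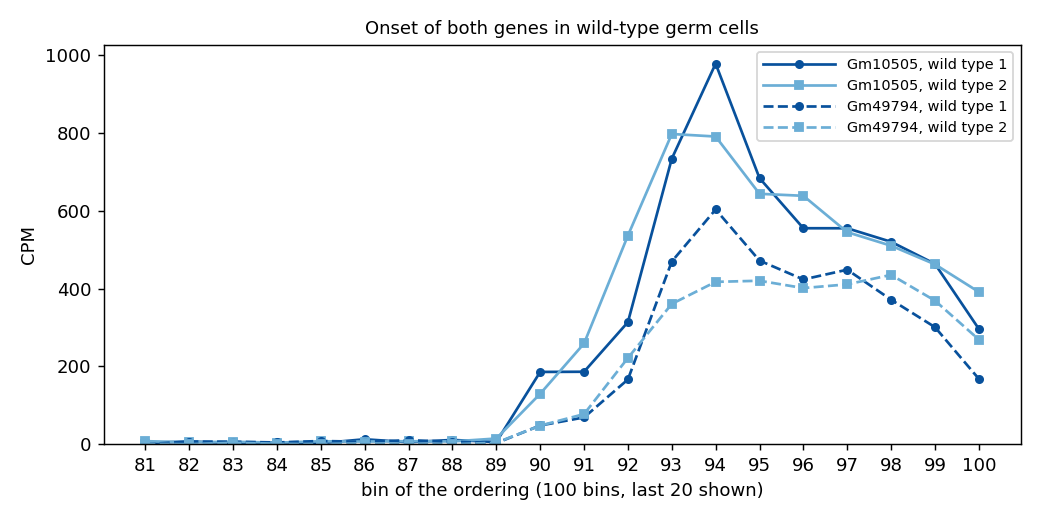
Level (CPM) of Gm10505 (solid) and Gm49794 (dashed) in the last 20 of 100 bins of the ordering, for the 2 wild-type libraries. Both genes stay near 0 up to bin 89, are highest around bin 94, and decline in CPM towards bin 100.

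Genes with known timing give the stage of this onset. Stra8, which starts the meiotic programme, had fallen to 26.9 and 36.1 CPM by wild-type bin 17, before either gene appeared. Psma8, the meiotic proteasome subunit, was at 88.7 and 89.3 CPM in bin 17 and at 154.1 and 144.9 CPM in bin 18. Its first rise so preceded them, although its wild-type mean was 193.8 CPM in cluster 10 and 688.7 CPM in cluster 11. Piwil1, the Argonaute protein of pachytene piRNAs, was at 98.9 and 65.6 CPM in bin 19 and 1104 and 698.9 CPM in bin 20. It so reached its high level after them. Psma8 is placed here by its first rise and Piwil1 by its high level, which are unlike measures.

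In single cells, joint detection of the 2 transcripts rose from bin 18 and was the rule in bins 19 and 20. In cluster 9, 2 of 855 cells of the second wild-type library and 0 of 365 of the first held both. In wild-type bin 17, 0 cells held both transcripts, while 7 and 24 held only Gm10505 and 9 and 5 only Gm49794, of 150 and 365 cells. In bin 18, 5 and 16 cells held both, 10 and 53 only Gm10505, and 9 and 4 only Gm49794, of 133 and 382 cells. In bin 19, 124 of 173 and 243 of 342 cells held both, with 18 and 43 holding only Gm10505 and 6 and 3 only Gm49794. In bin 20, 199 of 241 and 248 of 274 cells held both.

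Cells in which either transcript was detected often held many UMIs of it. In wild-type cluster 10, the cells with Gm10505 had a median of 9 and 7 UMIs of it and at most 77 in each library, and those with Gm49794 had a median of 6 in each library and at most 59 and 42. In cluster 11 the medians were 22 and 18.5 UMIs for Gm10505 and 14 and 13 for Gm49794. In cluster 10, 22.9% and 19.9% of cells held 5 or more UMIs of Gm10505, and 17.4% and 14.7% held as many of Gm49794. A cell with 0 UMIs is not shown to lack the transcript at this depth.

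**Figure D4:**
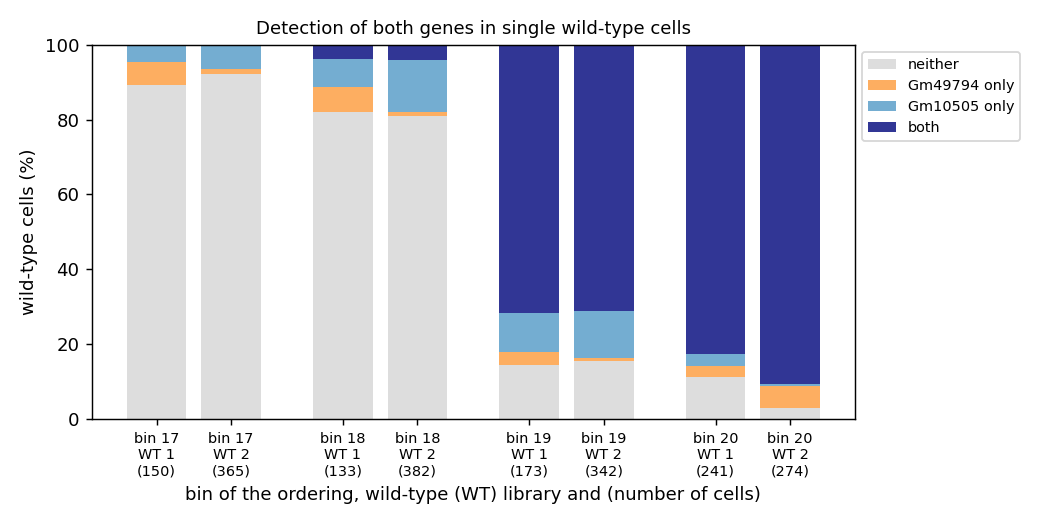
Share of wild-type cells (%) in bins 17 to 20 of the ordering in which both, only 1 or neither transcript was detected, 1 bar per library with its number of cells. Cells with both go from 0 in bin 17 to the majority in bins 19 and 20, and in bin 18 cells with Gm10505 alone outnumber those with both.

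Joint detection in cluster 10 exceeded what separate detection would give within cells of like depth. With cells grouped by library, cluster and depth (4 groups of equal size), 110 cells of the first wild-type library held both against 66.7 expected, a ratio of 1.65, and 229 cells of the second against 148.1, a ratio of 1.55. Of the cells with Gm49794, 83.3% and 94.6% also held Gm10505, and of the cells with Gm10505, 76.4% and 66.4% also held Gm49794. The ratio came down to 1.17 and 1.19 once cells were grouped by bin of the ordering as well, a grouping added after the data had been seen, and was 2.40 and 2.79 with no grouping by depth. In cluster 11, where nearly every cell held both, the ratio was 1.04 and 1.02. No p is given, because cells of 1 library are not replicates.

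The same ratio was taken with stage genes in cluster 10. With Prdm9, the histone methyltransferase that marks recombination sites, it was 0.414 and 0.510 for Gm10505 and 0.514 and 0.345 for Gm49794, so that cells of this cluster holding either noncoding transcript held Prdm9 less often than separate detection would give. In clusters 9 and 11 the Prdm9 ratios lay between 0.97 and 1.14, but rest on few cells. Per library, cluster 9 held 14 to 23 cells with each noncoding transcript, and cluster 11 held 26 and 27 with Prdm9. The other gene of the pair was in most cells, so these ratios could not lie far above 1. No Prdm9 ratio was taken within bins of the ordering. With Stra8 the cluster 10 ratio was 0.848 and 0.777 for Gm10505 and 0.842 and 0.768 for Gm49794. Psma8 was in 327 of 414 and 794 of 1018 cells of the cluster, so its ratio could not lie far above 1, and it was 1.06 in each library for Gm10505 and 1.08 and 1.05 for Gm49794. With Dmc1, the meiotic recombinase, found in like shares of cells, it was 0.949 and 0.964 for Gm10505 and 0.988 and 0.951 for Gm49794. Meiob, Tex101, Ly6k and Rad51ap2 were in nearly every cell of the cluster, so that their ratios could only lie close to 1 and are not compared.

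In Meioc-null cells both transcripts were nearly absent, which is the property the genes were chosen for. All kept cells of the null libraries gave 21 and 15 UMIs of Gm10505 and 4 and 3 of Gm49794, against 7774 and 10329 UMIs of Gm10505 and 5285 and 6771 of Gm49794 in the wild-type libraries. In null cluster 10, which held 205 and 282 cells, Gm10505 was at 1.33 and 1.24 CPM from 4 and 6 UMIs. Gm49794 gave 0 UMIs in both.

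The wild-type mean of Gm10505 in cluster 10, 309.0 ± 28.2 CPM, was 240.6-fold the null mean of 1.28 ± 0.0682 CPM (SD, n = 2 each). That of Gm49794 was 169.4 ± 44.7 CPM, while the 0 UMIs of the null libraries allow up to 0.999 and 0.618 CPM (3 counts per library). That wild-type and null libraries did not overlap for either gene follows from how the genes were chosen, and nothing is read from it. The values moved with the settings: with a mitochondrial limit of 5% the means of Gm10505 were 541.3 and 12.02 CPM, the latter from 3 UMIs in 21 cells, and without doublet removal they were 184.0 and 1.06 CPM, while the wild-type mean of Gm49794 was 354.4 and 88.6 CPM with 0 null UMIs. In the same cluster 67.0% of the tested genes were called between genotypes with 33.2% higher and 33.9% lower in wild type, and nothing is read from the members' own place among them.

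Detection gave the same picture at equal depth. In cluster 10, 34.8% and 33.9% of wild-type cells held a Gm10505 UMI against 1.46% and 2.13% of null cells, and 31.9% and 23.8% held Gm49794 against 0 of 205 and 0 of 282 null cells, which allows up to 1.46% and 1.06%. With each cell thinned to 5000 UMIs, which left out 14 and 19 wild-type cells and 7 and 5 null cells, the wild-type shares were 29.3% and 26.7% for Gm10505 and 23.3% and 18.5% for Gm49794. In the null libraries they were 0 of 198 and 0 of 277 cells for either gene. Thinned to 3000 UMIs, Gm10505 was in 2 of 280 null cells of the second library and 0 of 203 of the first. Psma8, thinned to 5000 UMIs, was in 52.5% and 53.5% of wild-type and 25.3% and 30.3% of null cells of cluster 10. It is not a mark of this cluster alone, being in 17.3% and 17.9% of wild-type and 16.1% and 20.9% of null cells of cluster 1, the undifferentiated spermatogonia.

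The null cells of cluster 10 did not cover its full length. Null germ cells numbered 206 and 261 in bin 17, 23 and 25 in bin 18, and 0 in bins 19 and 20, where the wild-type libraries had 1030 cells together. Of 10004 null germ cells, 0 lay in or beyond bin 19, the bin of onset, and 1 lay at or beyond the onset of Gm10505 in the division into 100 bins. The comparison over cluster 10 therefore sets wild-type cells from both sides of the onset beside null cells before it. At the positions of this ordering where wild-type levels were high, the genotypes could not be compared. The paper placed some null cells among pachytene spermatocytes and others in a mutant-only cluster, while here wild-type cells alone set the positions. Germ cells with 3 or more Psma8 UMIs were also compared, wherever placed. Gm10505 was in 61.3% and 64.6% of wild-type against 0 of 132 and 1 of 217 null cells. Gm49794 was in 59.6% and 60.2% against 1 of 132 and 0 of 217. The median depth of these null cells was 32241.5 and 36914 UMIs, beside 13684 and 16494 in null cluster 10. It was 25393 and 30245 UMIs in null cluster 1, the undifferentiated spermatogonia, where Psma8 was also detected. Whether the wild-type and null cells of this comparison matched in position was not tested, so nothing is read from it.

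At the positions both genotypes shared, the difference was smaller. In bin 17, null Gm10505 was at 1.35 and 1.12 CPM beside 4.09 and 6.23 CPM in wild type, and null Gm49794 gave 0 UMIs beside 5.25 and 1.30 CPM. Wild-type somatic and unnamed cells, for comparison, were at 3.21 and 3.00 CPM for Gm10505 and at 4.82 and 3.75 CPM for Gm49794. In bin 18, 0 of 23 and 0 of 25 null cells held either transcript, which allows shares of up to 13.0% and 12%. Wild-type cells held Gm10505 in 11.3% and 18.1% and Gm49794 in 10.53% and 5.24% of that bin, so 3 of these 4 shares lay within what the null counts allow. In CPM the null limits in bin 18, 9.06 and 6.65, lay below wild-type Gm10505 at 37.3 and 38.3 and below wild-type Gm49794 at 13.3 and 12.8, although UMIs of 1 cell are not separate draws (67 wild-type Gm10505 UMIs came from 15 cells). Null cells also lay earlier within bin 18, at mean pseudotimes of 0.747 and 0.748 against 0.753 and 0.754 in wild type. Position and genotype are therefore not told apart in this bin.

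The few null UMIs of Gm10505 stood at a higher level in cluster 10 than in clusters 1 to 9, and cluster 10 held 4 of 21 and 6 of 15 of them. The positive null cells of cluster 10, 3 and 6 in number, held at most 2 and 1 UMIs each. Null clusters 1 to 9 gave 17 and 9 UMIs of Gm10505 and 3 and 1 of Gm49794 over 4866 and 4651 cells, which puts Gm10505 at 0.210 and 0.0943 CPM there, beside 1.33 and 1.24 CPM in null cluster 10. Null somatic and unnamed cells gave 0 UMIs of Gm10505 in 1483 and 1589 cells, which allows shares of up to 0.202% and 0.189%, at median depths of 7407 and 9299 UMIs.

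The state of the null cells in cluster 10 is described by the stage genes, tested with edgeR's quasi-likelihood test on counts summed per library (log2 fold change, wild type over Meioc-null, ± SE, Benjamini-Hochberg adjusted p). Lower in wild type were Stra8, at -4.91 ± 0.12 (adjusted p = 1.77e-13), Prdm9, at -1.61 ± 0.14 (7.26e-08), and Dmc1, at -1.07 ± 0.09 (7.75e-08). Higher were Psma8, at 1.57 ± 0.10 (3.38e-09), and Meiob, a single-strand DNA binding protein of meiosis, at 0.91 ± 0.10 (1.61e-06). Tex101, at -0.58 ± 0.18 (0.00982), and Rad51ap2, at 0.36 ± 0.13 (0.0253), were called as well, and Ly6k, at -0.26 ± 0.15 (0.133), was not. Piwil1 was in too few cells for the detection filter, at 51.5 and 24.2 CPM in wild type against 1.33 and 0.618 CPM in null (4 and 3 UMIs). It was called higher in wild type with no such filter (adjusted p = 7e-57, edgeR). Its wild-type libraries lay far apart and its null values rest on few UMIs, so the size of this p is not read. Tex101 and Rad51ap2 did not pass without the second wild-type library (adjusted p = 0.158 and 0.218), without the first null library (0.0874 and 0.228) or with no detection filter (0.0756 and 0.0536). Ly6k passed with the replicate number as a block (adjusted p = 1.76e-05), with DESeq2 (0.0350) and without doublet removal (0.0437).

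The sizes were not the same at a matched position. The stage genes, being protein-coding, were open to use in placing and ordering the cells. Their differences within a cluster or bin are therefore not independent of that placing. In bin 17 alone, a fit added after the data had been seen, in which 59.7% of the tested genes were called (29.8% higher and 29.9% lower in wild type), Prdm9 was at -0.23 ± 0.14 (adjusted p = 0.157, edgeR) and Dmc1 at -0.21 ± 0.11 (0.0988). Stra8 was still lower in wild type, at -4.05 ± 0.15 (1.38e-19), and Meiob (0.91 ± 0.11, 5.5e-08) and Psma8 (0.43 ± 0.13, 0.00513) were still higher. Tex101 (-0.47 ± 0.19, 0.0329) and Ly6k (-0.59 ± 0.16, 0.00283) were lower in wild type, and Rad51ap2 was at 0.03 ± 0.14 (0.868). Null cells at the same position thus held far more Stra8 and less Meiob and Psma8.

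The tested genes around the pair were all present in null cells. Of 39 counted genes with a start within 500 kb of either gene, 10 were detected in enough cells of cluster 10 to be tested, and 5 of them passed, 4 higher and 1 lower in wild type. Over all genes 67.0% passed. The median log2 fold change was 0.20 for the 10 genes and -0.01 for all genes tested other than the pair.

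Snrpc, a protein of the U1 splicing particle, was at 225.4 and 233.1 CPM in wild-type cells against 166.2 and 156.5 CPM in null cells, a log2 fold change of 0.57 ± 0.09 (adjusted p = 6.44e-05, edgeR). Uqcc2, an assembly factor of mitochondrial complex III, was at 464.4 and 543.6 against 345.4 and 394.8 CPM (0.50 ± 0.13, adjusted p = 0.00369). Gm26724, another noncoding gene, was at 20.1 and 25.2 against 10.3 and 15.7 CPM (0.83 ± 0.23, adjusted p = 0.00423). Gm26724 was in 25.3% of wild-type and 19.9% of null cells, so it passed the detection filter only through wild type, where it was higher. All 3 were higher in wild type by less than 1 on the log2 scale, and in each the wild-type libraries lay above both null libraries.

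Rps10, a protein of the small ribosomal subunit, was at 1448 and 1617 against 1049.5 and 1255 CPM (0.47 ± 0.17, adjusted p = 0.0217, edgeR). Cuta was the 1 gene lower in wild type, at 87.0 and 79.0 against 122.2 and 134.7 CPM (-0.58 ± 0.10, adjusted p = 0.000125). Kifc5b, Lemd2, Gm49774, Nudt3 and Ilrun did not pass, with log2 fold changes of 0.17, 0.09, 0.17, 0.22 and -0.28. Without the second wild-type library or without the first null library, 3 of the 10 passed, among them neither Uqcc2 nor Rps10, and with the replicate number as a block 7 passed, with Nudt3 (adjusted p = 0.0331) and Ilrun (0.0216) added. In bin 17 alone 3 of 8 tested neighbours passed, Uqcc2 higher (0.51) and Cuta (-0.92) and Lemd2 (-0.72) lower in wild type, beside 59.7% of all genes.

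The genes nearest to the pair were too scarce for the detection filter. Gm49793, on the other side of Gm10505 and on the minus strand, gave 8, 7, 0 and 0 UMIs in cluster 10 of wild-type 1, wild-type 2, null 1 and null 2. The antisense gene Gm49795 gave 5, 15, 1 and 1 UMIs, Gm49796 gave 0 in every library, and the glutamate receptor gene Grm4 gave 4, 4, 1 and 0. With no detection filter, Gm49793 was called higher in wild type (adjusted p = 0.0199, edgeR), and Gm49795 (0.138) and Grm4 (0.492) were not. The high counts at this locus in cluster 10 were those of Gm10505 and Gm49794.

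**Figure D5:**
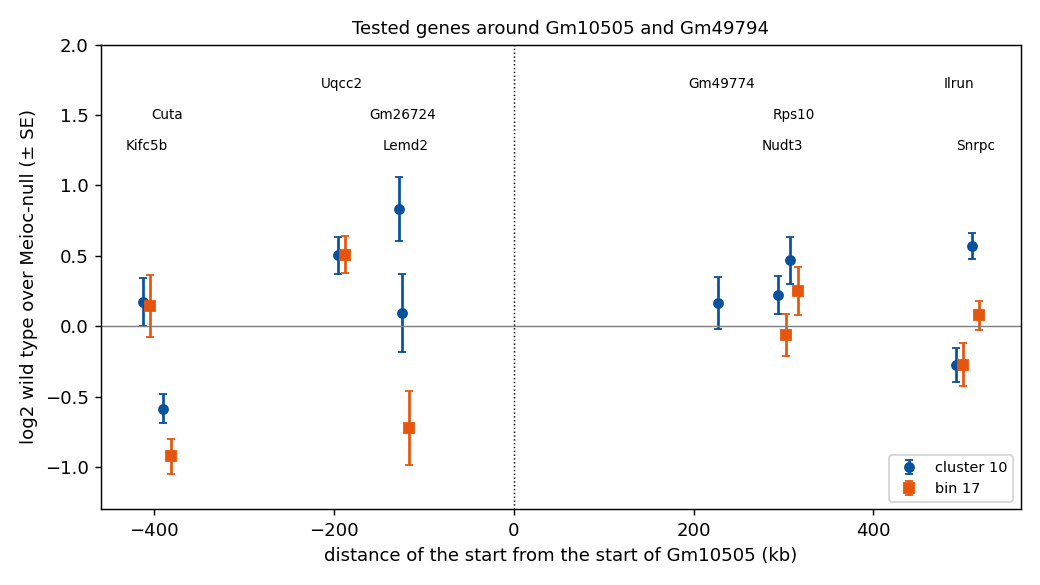
Log2 fold change (wild type over Meioc-null, ± SE) of the 10 tested neighbours against the distance of their start from that of Gm10505 (kb), in cluster 10 (circles) and, for the 8 tested there, in bin 17 (squares), with the 2 symbols of a gene set slightly apart. Every value lies between -0.92 (Cuta in bin 17) and 0.83 (Gm26724 in cluster 10), and neither Gm10505 nor Gm49794 is drawn.

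Genes of the annotation's other long noncoding biotypes, which likewise placed no cell, changed in both directions in cluster 10. These biotypes take in processed transcripts, among them genes known to code for proteins, such as Cct6a and Ptpmt1. Of 130 tested in cluster 10, 91 passed, 51 higher and 40 lower in wild type, beside 67.0% of all genes. The 5 with the largest change towards wild type were Gm16835 (log2 fold change 3.29 ± 0.24), Gm2762 (2.17 ± 0.17), 4930426I24Rik (2.14 ± 0.32), Gm15492 (2.14 ± 0.24) and 9330102E08Rik (2.09 ± 0.16), all with adjusted p of 0.00136 or less by edgeR. Gm16835 was at 39.0 and 53.9 normalised CPM in wild type and 3.95 and 5.35 in null. At their null levels these 5 were too scarce for the detection filter, so they were tested only through wild type, where they were high. In bin 17 Gm16835 was at 3.07, 4930426I24Rik at 1.37 and 9330102E08Rik at 1.22, all still called, and Gm2762 and Gm15492 were not tested there.

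The 5 with the largest change in the other direction were AI662270 (-5.96 ± 0.30), Gm49732 (-4.86 ± 0.28), Tsix (-4.45 ± 0.15), 4933427D06Rik (-2.65 ± 0.20) and Tslrn1 (-2.53 ± 0.10), all with adjusted p of 2.17e-08 or less. At their wild-type levels all but Tslrn1 were too scarce for the detection filter. These were tested only through the null cells, where they were high. Tsix, the antisense transcript of the Xist locus, was at 5.57 and 4.45 normalised CPM in wild type and 105.8 and 106.8 in null. AI662270 was at 0.477 and 0.537 in wild type and 33.6 and 33.2 in null. These 5 kept their direction in bin 17, with log2 fold changes from -6.98 to -1.90.

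The pattern of each gene over wild-type cells was most like that of the other. Over 22 points, 11 clusters in each of 2 wild-type libraries, their log2(CPM + 1) had a Pearson r of 0.994, the highest for either among 16481 genes. The points share libraries, and both genes stood far higher in clusters 10 and 11 than in the rest. No r was taken without those 2 clusters. Next to Gm10505 came Kctd19 (0.986), a meiotic factor of late prophase, Cbln3 (0.983), Mir124-2hg (0.983) and Gm30132 (0.982). Next to Gm49794 came Kctd19 (0.991), Gm30132 (0.990), Dnah7a (0.989), an axonemal dynein, and Rsph1 (0.988), a radial spoke protein.

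Of the genes of like pattern, 5 were present in null cluster 10 below the wild-type level. Wild-type cells of cluster 10 lay on both sides of the onset and null cells almost all before it. Position and genotype therefore cannot be told apart for these genes. Kctd19 was at 116.8 and 124.4 against 52.0 and 62.2 CPM (wild type against null). Rsph1 was at 924.5 and 805.5 against 227.8 and 217.5 CPM, Gm30132 at 28.1 and 29.4 against 6.66 and 8.44 CPM, and Dnah7a at 43.0 and 34.0 against 20.7 and 18.3 CPM. Cbln3 was low in both genotypes, at 3.55 and 2.69 against 1.67 and 1.65 CPM. Mir124-2hg, a host gene of a neuronal miRNA, was at 4.78 and 6.38 CPM in wild type, and its null values of 0.333 and 0.412 CPM lay under the limit of 3 counts (0.999 and 0.618 CPM).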

How the data were processed

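Gene by cell matrices were analysed for 4 libraries of P15 mouse testis, 2 wild-type and 2 Meioc-null. Per the labels and the study's methods, the authors dissociated 1 testis per pup, made Chromium 3′ v3.1 libraries in 2 batches, and deposited raw UMI counts from Cell Ranger 4.0.0 on GRCm38 (mm10), which the submitters' processing notes name beside Seurat. Default Cell Ranger counting assigns reads to genes by strand.

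Total counts were 158291903 to 190455307 UMIs per library. Barcodes with more than 1000 genes and under 10% mt- UMIs were kept. Barcodes with the highest Scrublet scores (scanpy 1.11.5), 0.8% for each 1000 barcodes, were removed as doublets, since the caller's own limit marked only 1.94% to 4.58%. Wild-type cells were clustered on 2000 variable protein-coding genes and 30 components (Leiden), germ cells again at the lowest resolution with at least 10 clusters (11 formed), and all cells were placed by their 30 nearest wild-type cells. Germ cells were ordered by diffusion pseudotime. CPM is UMIs per 1000000 UMIs of the cells concerned. Intervals are exact (Clopper-Pearson, 95%), and a count of 0 was given a limit of 3 counts.

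Counts summed per library were tested with edgeR 4.0.16 (quasi-likelihood, TMM, robust) on genes with a UMI in 25% or more of the wild-type or of the null cells, with an adjusted p under 0.05 and a log2 fold change over 0.1, within the cluster. The test was checked on simulated counts with known changes in few genes and no batch effect, a setting unlike these data. Cluster 11, where Gm10505 was highest, held 0 null cells, so the test was run in cluster 10. Annotation was GENCODE M21, which matched 32235 of 32285 gene IDs, and promoters came from RefSeq (GRCm38.p6).

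The text names both genes, their tested neighbours, the 5 genes of most similar pattern to each among those with at least 50 UMIs, the 5 most changed genes of long noncoding biotypes (processed transcripts included) in each direction, and fixed stage genes. The genes, lists and tests were chosen with earlier results of these data known. Labels place each numbered pair in 1 litter and batch. Deviations of same-numbered libraries from their group means correlated at 0.41 over 6692 genes. The p-values measure the spread between 2 pups per group, which also differ in litter and batch. The estimate of that spread is shared over genes by edgeR.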

Additional observations from a re-analysis of the deposited data

How the results depend on the processing

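The level in cluster 10 differed between settings, and the cause was not tested. The wild-type mean of Gm10505 was 309.0 CPM as reported, 541.3 with a mitochondrial limit of 5%, 184.0 without doublet removal, 205.4 with cells placed by 15 neighbours, and 183.7 with at least 8 clusters. The Gm49794 mean was 169.4, 354.4, 88.6, 101.4 and 88.8 CPM in the same order. The null mean of Gm10505 was 1.28 as reported, 12.02 with the 5% limit (3 UMIs in 21 cells) and 1.06 without doublet removal, and Gm49794 gave 0 UMIs in null cluster 10 under all of these. Without doublet removal the counterpart of cluster 11 held 875 wild-type and 7 null cells. The ratio of joint detection in cluster 10 was 1.60 on average, 2.59 with no grouping by depth, 1.18 grouped by bin, 1.11 with the 5% limit and 2.04 without doublet removal. Both genes began at 90% of the ordering with 10 bins as with 20, and with 100 bins Gm10505 began at 89% and Gm49794 at 90%.

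The 4484 genes called, other than the pair, of 6690 became 3870 with DESeq2 1.42.0, 4495 with its size factors, 6681 of 20701 with no detection filter, 5078 with the replicate block, and 3888 to 4150 with 1 library left out. Of the neighbours 5 were called as reported, 2 within 250 kb, 9 of 32 with no detection filter, 3 to 5 with 1 library left out and 3 in bin 17. The replicate block changed the calls of Nudt3, Ilrun and Ly6k. Long noncoding calls went from 91 of 130 to 561 of 3927 with no filter. Lemd2, not called, changed sign without the first wild-type library (-0.17), without the second null library (-0.27) and in bin 17 (-0.72), ranging from -0.27 to 0.47 with 1 library left out, as did Nudt3 in bin 17 (-0.063). The cause of these shifts was not tested. With the 5% limit only 21 null cells of cluster 10 were left, and the test was not run. With 2 libraries per group, 48 null cells in bin 18 and 0 beyond it, the number of null cells limits what can be said of them at the onset.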

Other observations

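Barcodes that the rule left out held both transcripts in the wild-type libraries. In barcodes with 1000 or fewer genes, which the report's comparisons do not use, Gm10505 was at 66.7 and 35.7 CPM and Gm49794 at 91.9 and 45.1 CPM in wild type, at median depths of 1000.5 and 796 UMIs. In the null libraries Gm10505 gave 2 and 0 UMIs there and Gm49794 gave 0 in both. Gm49794 made up 58.0% and 55.8% of the 2 genes' UMIs in these wild-type barcodes, beside 62.4% and 58.6% in clusters 1 to 9, 60% and 55.6% in somatic and unnamed cells, and 37.9% and 32.3% in cluster 10. The exact 95% binomial intervals of the first 3 overlapped within each library.

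In barcodes with over 1000 genes but 10% or more mitochondrial UMIs, Gm10505 was at 22.8 and 16.98 CPM and Gm49794 at 31.8 and 12.1 CPM in wild type. The first wild-type library thus held more Gm49794 than Gm10505 there, and the second held less. Null barcodes of this kind were at 0.317 and 0.126 CPM for Gm10505 and 0.136 and 0.126 CPM for Gm49794.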
